A study of Mus musculus with 2 samples.

Results

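The 8 genes followed here are widely used to describe reactive astrocytes and inflammation in nervous tissue, and were measured across the cells of a mouse neural stem cell culture: Lcn2, C3, Serpina3n, Cd44, Osmr, Timp1, S1pr3 and Cp. They were taken by symbol, and all 8 were found among the 28692 genes of the deposited matrix. The cells were postnatal neural stem cells of strain C57/Bl6J, grown out of the subventricular zone (SVZ, the stem cell niche lining the lateral ventricle), and were profiled with the 10x Genomics Chromium 3′ chemistry, version 1. The labels name 1 library treated with 1 µM 20HC, an oxysterol, and 1 library given the DMSO vehicle, each taken 3 days after the mitogens EGF and FGF were withdrawn, and no genotype other than C57/Bl6J is given for either. Both libraries were deposited as 1 matrix, in which barcodes end in 1 or 2 and nothing ties the number to a library, so no barcode was given a condition, 20HC and vehicle were not compared, and the matrix counts as 1 sample. Differences below are between cell classes of this sample, without replicates and without tests, and every interval is a 95% interval that covers counting error only.

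Astrocytes respond to injury, infection and cytokines with a change of state called reactivity. They enlarge their intermediate filaments, release acute-phase and complement proteins, remodel matrix and become more sensitive to cytokines of the interleukin 6 family, which signal through a shared receptor subunit and STAT3, and to microglial signals that act through NF-kB. The 8 genes cover several arms of that state. Serpina3n encodes a secreted serine protease inhibitor, Lcn2 a secreted lipocalin that binds iron-loaded siderophores, and Cp ceruloplasmin, a copper-containing ferroxidase; these 3 are acute-phase proteins. C3 is the central component of the complement cascade. Cd44 (the hyaluronan receptor), Osmr (the oncostatin M receptor subunit) and S1pr3 (a receptor of sphingosine 1-phosphate) are membrane receptors, and Timp1 is a secreted inhibitor of matrix metalloproteases.

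The 250 bases before the annotated transcription start are shown for Serpina3n, Cp and C3, the genes that differed between the astrocyte-like clusters described below, and for Lcn2, whose counts were concentrated in few cells. They are RefSeq sequences of build GRCm38.p6, written 5′ to 3′ on the gene's own strand. Serpina3n is at chr12:104406458-104406707 on the plus strand, Cp at chr3:19956804-19957053 on the plus strand (the first of 2 listed starts), C3 at chr17:57228137-57228386 on the minus strand and Lcn2 at chr2:32387740-32387989 on the minus strand. Capitals mark matches, on either strand, to 3 letter patterns of factors that act downstream of inflammatory signals: TTCNNNGAA for STAT factors, TGANTCA for AP-1 and TTGCNNAA for C/EBP.
Serpina3n: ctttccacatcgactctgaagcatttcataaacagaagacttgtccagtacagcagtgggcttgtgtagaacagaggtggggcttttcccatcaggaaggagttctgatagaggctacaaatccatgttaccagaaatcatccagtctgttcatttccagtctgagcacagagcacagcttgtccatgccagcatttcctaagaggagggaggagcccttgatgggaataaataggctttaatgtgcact
Cp: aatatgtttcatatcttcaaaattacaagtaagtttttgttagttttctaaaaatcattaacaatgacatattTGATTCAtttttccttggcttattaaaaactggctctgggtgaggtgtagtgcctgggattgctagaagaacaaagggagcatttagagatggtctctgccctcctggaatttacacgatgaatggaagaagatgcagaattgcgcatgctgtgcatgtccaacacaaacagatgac
C3: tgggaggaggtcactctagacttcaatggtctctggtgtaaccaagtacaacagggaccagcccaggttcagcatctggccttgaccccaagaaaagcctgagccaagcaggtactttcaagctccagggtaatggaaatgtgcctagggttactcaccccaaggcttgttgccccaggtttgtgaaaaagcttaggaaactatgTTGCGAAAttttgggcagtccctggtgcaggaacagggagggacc
Lcn2: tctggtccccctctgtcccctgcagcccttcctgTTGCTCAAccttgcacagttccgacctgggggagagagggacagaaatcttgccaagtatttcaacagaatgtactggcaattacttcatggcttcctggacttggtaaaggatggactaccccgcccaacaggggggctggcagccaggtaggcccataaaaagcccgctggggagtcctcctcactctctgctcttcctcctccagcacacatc
The C/EBP pattern was found in Lcn2, 216 bases before the RefSeq start but inside the GENCODE gene span given below, and in C3, 45 bases before its start. The AP-1 pattern was found in Cp, 177 bases before the start. None of the patterns was found in the same window of Serpina3n, Cd44, Osmr, Timp1 or S1pr3. Over all 27025 promoter windows of the same length, 9.55% held the C/EBP pattern, 6.87% the AP-1 pattern and 7.18% the STAT pattern.

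In the gene annotation (GENCODE M21, build GRCm38) all 8 are protein-coding genes. Serpina3n spans chr12:104406729-104414329, Cp chr3:19957054-20009145, C3 chr17:57203970-57228136, Lcn2 chr2:32384633-32388252, Cd44 chr2:102811141-102901665, Osmr chr15:6813577-6874969, S1pr3 chr13:51408639-51422797 and Timp1 chrX:20870166-20874735. The RefSeq promoter windows of Lcn2 and Osmr lie inside these spans, as RefSeq and GENCODE place their starts differently. Exons of Cp overlap exons of Hps3 on the other strand, and Timp1 lies inside Syn1 on the other strand without sharing exon sequence. No source used here gives whether strand was used in counting. Hps3 had 253 UMIs (unique molecular identifiers, 1 for each captured transcript molecule) in all kept cells and Syn1 had 90. Hps3 stood at 6.98 CPM (UMIs per 1e+06 UMIs of the class) in the Pcp4-led and 6.74 CPM in the Gfap-led cluster introduced below, and at 8.21 CPM in fibroblast-like cells. Of the near-identical Serpina3 relatives in the matrix, only Serpina3i (18 UMIs), Serpina3g (6) and Serpina3m (2) had any UMI in kept cells.

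The matrix held 41462326 UMIs in 14685 barcodes, 10787 in barcode set 1 and 3898 in set 2, with 48 barcode sequences present in both sets. After filters on detected genes, mitochondrial UMIs and doublets, 13028 cells with 38337071 UMIs were kept, at medians of 2822 UMIs per cell in set 1 and 2888.5 in set 2. Clustering used neither the 8 genes nor any gene of the companion lists described below, and gave 12 clusters, of which 10 could be named from markers. Astrocyte-like cells made up 51.7% of kept cells in 2 clusters, 1 led by Pcp4, Agt and Gria1 (4166 cells) and 1 led by Gfap, Cldn10 and Aldoc (2563 cells). The name of the Pcp4-led cluster rests on a narrow margin, since its 10 leading genes held 1 astrocyte marker (Agt), 1 oligodendrocyte precursor marker (C1ql1) and 1 neuroblast marker (Stmn2). The other named clusters were progenitor-like (987 cells), S-phase cycling-like (971), mitotic cycling-like (1097), neuroblast-like (1528), oligodendrocyte precursor-like (OPC-like, 562), fibroblast-like (221), ependymal-like (71) and microglia-like (34) cells. Fibroblast-like cells also had the smooth muscle and pericyte genes Acta2 and Vtn among their leading genes. The 2 unnamed clusters were led by the hypoxia-response gene Car9 (323 cells) and by Lgals1 (505 cells with a median of only 1085 UMIs).

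Of the 8 genes, 7 were higher in astrocyte-like cells than in all other kept cells, and none was lower. A gene was called higher or lower when its CPM differed by at least 1.5-fold, with the same sign in set 1 and set 2, and with the other cells' CPM outside the class's Poisson interval. By this rule 35.7% of the 13037 genes with at least 30 UMIs were higher in astrocyte-like cells and 19.1% were lower, so a higher call was common. The median log2 ratio of the 8 genes (log2 of CPM + 5, astrocyte-like over other cells) was 0.96, against 0.15 over all 13037 genes. Total UMI scaling carries part of that background: median-of-ratios scaling shifted the astrocyte-like ratios by 0.25 on the log2 scale, and the calls over all genes became 26.6% higher and 25.7% lower. Timp1 then stood at a log2 ratio of 0.40 and lost its call, and the other 6 kept theirs.

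Serpina3n, the protease inhibitor, stood at 82.8 CPM (interval 78.9 to 86.8) in astrocyte-like cells and 13.9 CPM in other cells, a ratio of 5.96 (5.21 to 6.84), and 87.4% of its 1954 UMIs were in astrocyte-like cells. S1pr3, the sphingosine 1-phosphate receptor, had 62.1 CPM in astrocyte-like cells and 10.3 CPM in other cells, a ratio of 6.01 (5.14 to 7.06). Cd44 had 177 CPM in astrocyte-like cells and 51.1 CPM in other cells, a ratio of 3.47 (3.23 to 3.74). These 3 genes had intervals far from 1. Osmr, the cytokine receptor subunit, had 14.8 CPM in astrocyte-like cells and 4.18 CPM in other cells, a ratio of 3.55 (2.74 to 4.64). Cp had 14.3 CPM in astrocyte-like cells and 5.99 CPM in other cells, a ratio of 2.40 (1.91 to 3.02). Timp1 had the smallest ratio among the 7 called genes, 1.62 (1.47 to 1.78), with 59.8 CPM in astrocyte-like cells and 36.9 CPM in other cells. C3 was higher on few counts, with 46 UMIs (2.23 CPM) in astrocyte-like cells and 6 UMIs (0.339 CPM) in other cells, a ratio of 6.58 (2.80 to 18.8). Lcn2 had 45 UMIs (2.18 CPM) in astrocyte-like cells and 2 UMIs (0.113 CPM) in other cells, a ratio of 19.3 (5.04 to 164), and was not called because its only UMI in barcode set 2 lay outside the astrocyte-like class.

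**Figure D1:**
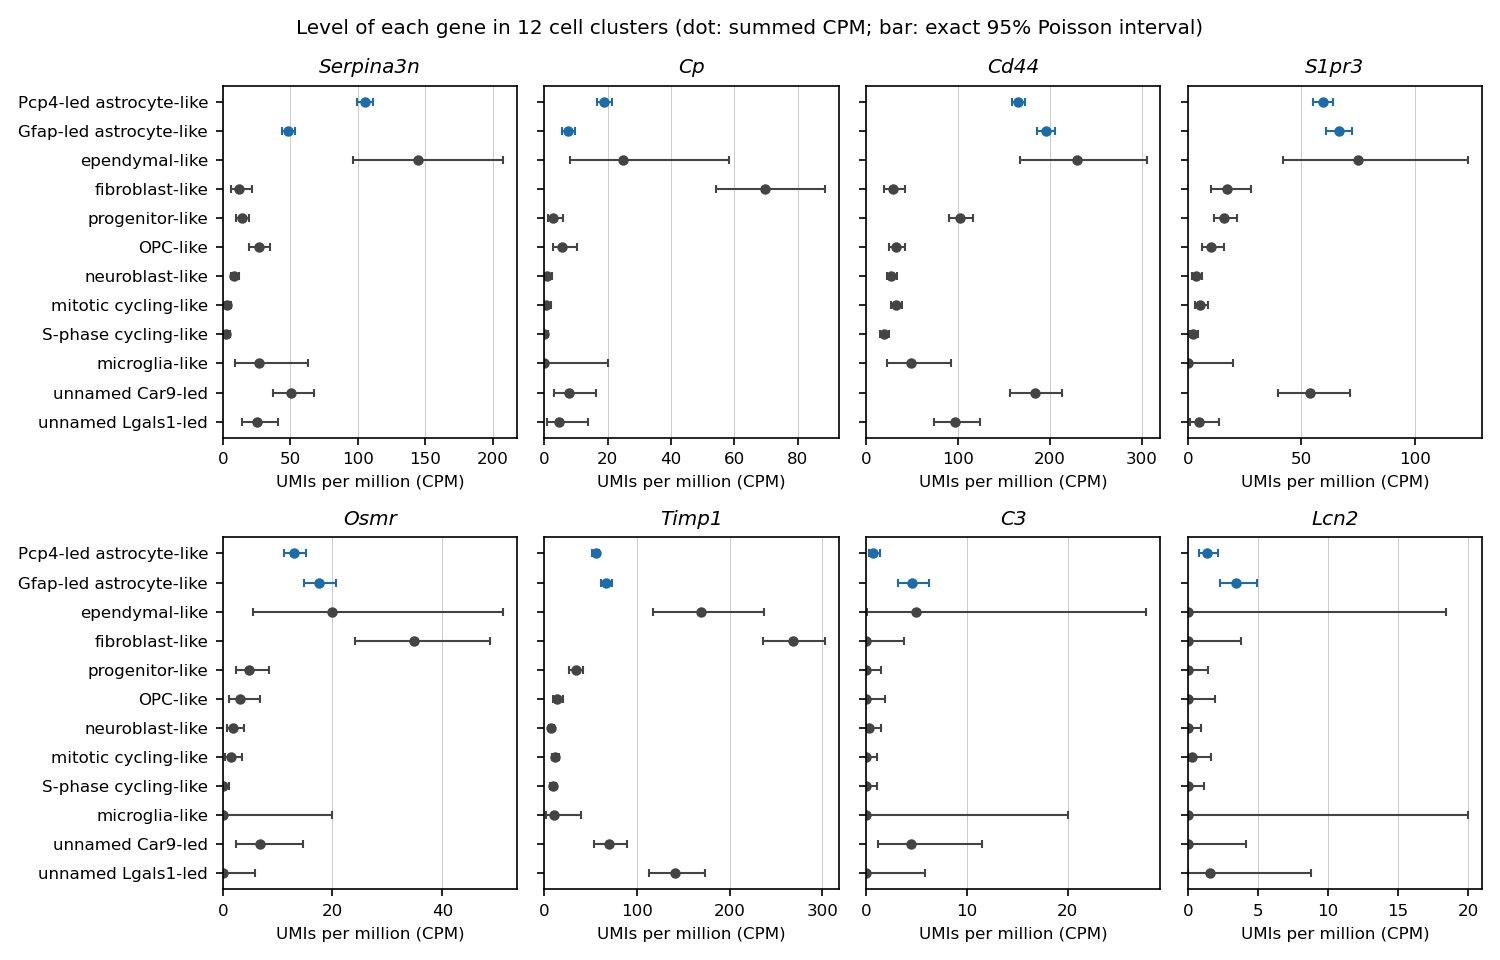
Level of each gene (CPM, horizontal axis, own scale for each gene) in the 12 clusters, with exact 95% Poisson intervals and the astrocyte-like clusters in blue. Serpina3n and Cp separate the 2 astrocyte-like clusters, at 105 and 48.6 CPM and at 18.8 and 7.47 CPM in Pcp4-led and Gfap-led cells. Fibroblast-like cells rank first for Timp1 (268 CPM), Cp (69.8 CPM) and Osmr (34.9 CPM), with intervals that overlap those of ependymal-like cells. For Timp1 that overlap rests on 1 ependymal-like cell with 16 UMIs.

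The order of the clusters differed between the genes. For Serpina3n the ependymal-like cells (145 CPM, interval 96.8 to 208) and the Pcp4-led cluster (105 CPM, 99.5 to 111) came first and could not be separated by counting error, and both lay above the Car9-led (50.6 CPM) and Gfap-led (48.6 CPM) clusters, which could not be separated from each other. Next in order, the microglia-like, OPC-like and Lgals1-led clusters stood at 25.3 to 27.1 CPM. The microglia-like value rested on 5 UMIs, and its interval of 8.80 to 63.2 CPM overlapped those of the Car9-led and Gfap-led clusters. The Lgals1-led interval (14.5 to 41.1 CPM) overlapped that of the Car9-led cluster (36.9 to 67.8 CPM). Progenitor-like and fibroblast-like cells stood at 14.0 and 12.3 CPM, and neuroblast-like and cycling-like cells at 2.75 to 8.53 CPM. For Cd44 the ependymal-like (229 CPM), Gfap-led (195 CPM), Car9-led (183 CPM) and Pcp4-led (166 CPM) clusters came first, each overlapping its neighbour. Progenitor-like cells followed at 103 CPM (90.5 to 116), below the Pcp4-led interval of 159 to 173 CPM. S1pr3 had the same 4 leading clusters, at 74.8 CPM in ependymal-like, 66.4 in Gfap-led, 59.3 in Pcp4-led and 54.0 in Car9-led cells, each overlapping its neighbour, and all 4 lay above fibroblast-like cells at 17.4 CPM (10.2 to 27.9). S1pr3 was at 0 UMIs in the 34 microglia-like cells, where the upper bound of the interval is 20.0 CPM.

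Serpina3n and Cp were higher, and C3 was lower, in the Pcp4-led than in the Gfap-led astrocyte-like cluster, and the other 5 genes were not called in either direction. Over all measured genes 7.96% were called higher and 5.62% lower in this comparison. Serpina3n stood at 105 CPM (99.5 to 111) in Pcp4-led cells and 48.6 CPM (44.0 to 53.7) in Gfap-led cells, a ratio of 2.16 (1.93 to 2.43). It was nearly the same in both barcode sets, at 104 CPM in set 1 and 107 CPM in set 2 of the Pcp4-led cells, and 48.4 CPM in set 1 and 49.3 CPM in set 2 of the Gfap-led cells. The clusters did not overlap in either set. Cp stood at 18.8 CPM (16.5 to 21.4) in Pcp4-led cells and 7.47 CPM (5.71 to 9.60) in Gfap-led cells, a ratio of 2.52 (1.90 to 3.40). By set, Cp had 17.7 and 22.1 CPM in Pcp4-led cells and 7.67 and 6.92 CPM in Gfap-led cells. Hps3, the gene on the other strand, had a Pcp4-led level within 1 CPM of its Gfap-led level, as given above.

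C3 ran the other way, with 9 UMIs (0.722 CPM, 0.330 to 1.37) in Pcp4-led cells and 37 UMIs (4.53 CPM, 3.19 to 6.25) in Gfap-led cells, a ratio of 0.159 (0.0676 to 0.336). With a limit of 5% mitochondrial UMIs the call was lost (log2 ratio -0.55). In cells thinned to 1500 UMIs C3 kept its direction (log2 ratio -0.88) but fell under the minimum of 30 UMIs. Cd44 had 166 CPM in Pcp4-led and 195 CPM in Gfap-led cells, a ratio of 0.847 (0.793 to 0.905), so its interval lay below 1 but the difference was under 1.5-fold. Osmr had 13.1 CPM in Pcp4-led and 17.5 CPM in Gfap-led cells, a ratio of 0.746 (0.593 to 0.941). Timp1 had 55.2 CPM in Pcp4-led and 66.8 CPM in Gfap-led cells, a ratio of 0.827 (0.738 to 0.927). S1pr3 had 59.3 CPM in Pcp4-led and 66.4 CPM in Gfap-led cells, a ratio of 0.894 (0.799 to 1.00), which counting error does not separate from 1. The 8 genes therefore did not move as a block between the clusters, and their median log2 ratio was -0.24, against 0.04 over all genes. Summed fibroblast markers stood at 77.4 CPM in Pcp4-led and 165 CPM in Gfap-led cells (11 and 12 of 12 detected, Postn at 0 in the Pcp4-led cells), and summed microglia markers at 16.4 and 17.3 CPM; their part in these ratios was not tested.

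**Figure D2:**
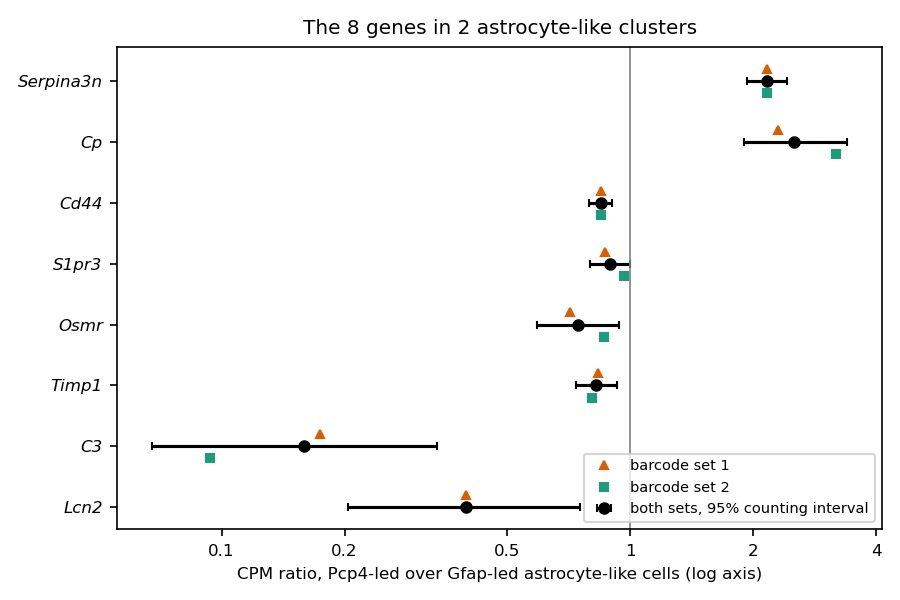
CPM of Pcp4-led over Gfap-led astrocyte-like cells (horizontal log axis) for each gene, with the 95% counting interval over both barcode sets (black) and the value in set 1 (triangles) and set 2 (squares). Serpina3n (2.16) and Cp (2.52) lie to the right of 1 in both sets and C3 (0.159) to the left, while Lcn2 has no set 2 point because both clusters had 0 UMIs there.

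Serpina3n, Cp and Cd44 also differed between the astrocyte-like clusters in the share of cells detected after each cell was thinned to 1500 UMIs, which left 3793 Pcp4-led and 2447 Gfap-led cells. Serpina3n was then detected in 13.7% (12.6 to 14.8) of Pcp4-led cells and 7.11% (6.12 to 8.20) of Gfap-led cells, and unthinned in 22.7% and 12.2%. Cd44 was detected in 20.4% (19.1 to 21.7) of Pcp4-led and 24.0% (22.3 to 25.7) of Gfap-led cells, the opposite direction to Serpina3n and Cp. Cp was detected in 2.08% (1.65 to 2.59) of Pcp4-led and 0.981% (0.629 to 1.46) of Gfap-led cells. Neuroblast-like cells served as a low reference, and whether their UMIs were stray RNA or their own expression was not tested. Their shares were 1.01% for Serpina3n, 3.90% for Cd44, 0.939% for Timp1, 0.434% for S1pr3 and 0.0723% each for Osmr and Cp, over 1384 thinned cells. Median depth before thinning was 2915 UMIs in Pcp4-led, 3102 in Gfap-led and 2399 in neuroblast-like cells. Every one of these 6 genes was detected in both astrocyte-like clusters at a share above the upper bound of the neuroblast-like interval.

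**Figure D3:**
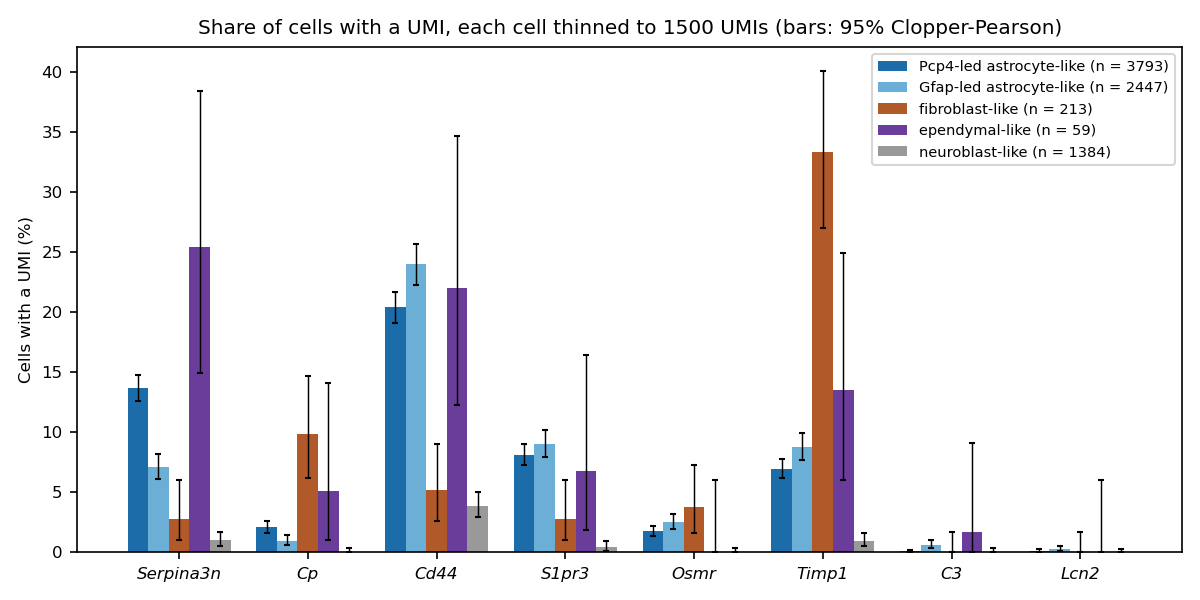
Share of cells with at least 1 UMI of each gene (vertical axis, %), every cell thinned to 1500 UMIs, in 5 cell classes, with 95% Clopper-Pearson intervals. Timp1 reaches 33.3% of fibroblast-like cells, Serpina3n 13.7% of Pcp4-led and 7.11% of Gfap-led cells, and neuroblast-like cells stay at 3.90% or below for every gene.

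Lcn2 and C3 were rare and uneven. Lcn2 had 47 UMIs in 20 kept cells and C3 had 52 UMIs in 35 kept cells. A single Gfap-led cell of barcode set 1, with 3248 UMIs in all, held 15 of the 47 Lcn2 UMIs (31.9%) and 6 of the 52 C3 UMIs (11.5%), and was the only cell with both genes. It also held 26 UMIs of Gfap and 1 UMI each of Timp1, S1pr3 and Cp, and none of Serpina3n, Cd44 or Osmr. Without that cell Gfap-led cells had 1.59 CPM of Lcn2 (0.848 to 2.72) in place of 3.43 CPM, and 3.80 CPM of C3 (2.58 to 5.39) in place of 4.53 CPM. The Pcp4-led cluster had 1.36 CPM of Lcn2 (0.794 to 2.18), so that counting error did not separate the clusters for Lcn2 once the cell was left out, while for C3 the difference remained. There were 7 cells with at least 3 UMIs of either gene, all of them astrocyte-like and in barcode set 1. Lcn2 had 46 UMIs (1.63 CPM, 1.20 to 2.18) in set 1 and 1 UMI (0.0982 CPM, 0.00249 to 0.547) in set 2, whereas C3 had 43 UMIs (1.53 CPM, 1.11 to 2.06) and 9 UMIs (0.884 CPM, 0.404 to 1.68). The set intervals did not overlap for Lcn2 and overlapped for C3, and no set can be called treated or vehicle. These intervals take UMIs of the same cell as independent, although 15 of the 46 Lcn2 UMIs of set 1 were in 1 cell. Counted as cells, Lcn2 was found in 19 of 9630 kept cells of set 1 and 1 of 3398 of set 2. The non-overlap for Lcn2 is therefore not a finding about the sets.

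The genes differed in how their UMIs were spread over cells. Of the Lcn2 UMIs, 23.4% were in cells with 1 UMI and 31.9% in cells with 5 or more. Of the Osmr UMIs, 90.0% were in cells with 1 UMI and none in cells with 5 or more. For Cp 73.9% and for S1pr3 68.5% of UMIs were in cells with 1 UMI. C3 had 48.1% of its UMIs in cells with 1 UMI and 11.5% in cells with 5 or more. Timp1 had 60.9% and 4.35%, although its richest cell, the ependymal-like cell described below, held 16 UMIs. Serpina3n and Cd44, with far more UMIs, reached at most 7 UMIs in a cell, and 55.9% and 52.3% of their UMIs were in cells with 1 UMI.

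**Figure D4:**
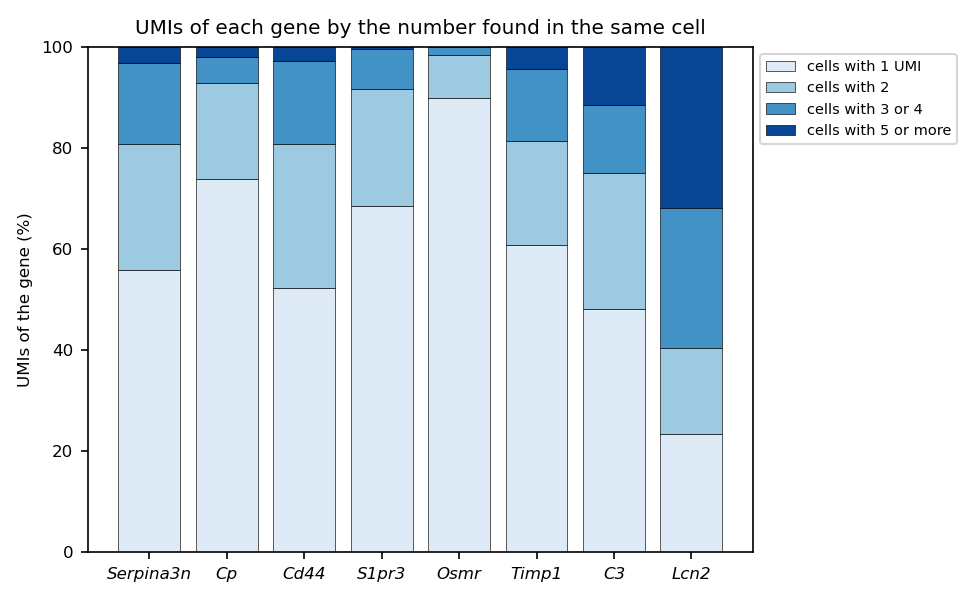
UMIs of each gene (vertical axis, % of the gene's UMIs in kept cells) split by how many UMIs of that gene the same cell held. Osmr UMIs are mostly single (90.0%), whereas 31.9% of Lcn2 UMIs are in a cell with 5 or more.

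Astrocyte-like cells often held several of the 8 genes, yet within the astrocyte-like clusters no pair that could be compared had separate intervals of detection. UMIs of at least 2 of the genes were found in 24.98% (24.0 to 26.0) of astrocyte-like cells, and in 8.89% (8.20 to 9.63) after thinning. Other classes reached similar or higher shares: 36.6% of ependymal-like cells (20.3% thinned), 32.6% of fibroblast-like cells (10.3% thinned) and 20.4% of Car9-led cells (7.37% thinned). For neuroblast-like cells the shares were 0.785% and 0.145%, and for cycling-like cells 0.870% and 0.151%. No cell held more than 5 of the genes. In the thinned Pcp4-led cells, Cd44 was detected in 23.9% (20.3 to 27.8) of cells with Serpina3n and 19.9% (18.5 to 21.3) of cells without it, and S1pr3 in 10.1% (8.05 to 12.4) of cells with Cd44 and 7.65% (6.73 to 8.66) of cells without it. Of the 15 pairs that could be compared in Pcp4-led cells and the 10 in Gfap-led cells, none had separate intervals, and the correlations of detection ran from -0.02 to 0.04. Counts at 1500 UMIs per cell are sparse, and correlations of this size are not a finding.

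Cd44, C3, Timp1, S1pr3 and Serpina3n were also compared between cells with many and few UMIs of Gfap, the filament gene most used to mark reactivity. Only Cd44, in Gfap-led cells, had separate intervals at the ends of the Gfap range. Levels with overlapping intervals can still differ, and no interval of the ratio was made for these tertiles. Thinned cells were ranked by Gfap UMIs within their cluster and split into tertiles. In Gfap-led cells Cd44 stood at 230 CPM (203 to 260) in the highest tertile, 187 CPM in the middle and 172 CPM (150 to 196) in the lowest, with separate intervals at the ends. C3 stood at 9.70 CPM (4.84 to 17.4) in the highest tertile and 3.16 CPM (0.862 to 8.10) in the lowest, with overlapping intervals. In Pcp4-led cells Cd44 stood at 179 CPM (160 to 200) in the highest and 149 CPM (134 to 166) in the lowest tertile, with overlapping intervals, and Timp1 at 60.6 CPM (49.7 to 73.1) and 42.7 CPM (34.6 to 52.1), which overlapped as well. Serpina3n did not follow Gfap in Pcp4-led cells, at 112 CPM in the highest tertile, 79.1 CPM in the middle and 128 CPM in the lowest. S1pr3 stayed between 55.0 and 68.0 CPM in every tertile of both clusters. Cd44 and Timp1 also moved with the mitochondrial share of a cell's UMIs. In Gfap-led cells Cd44 had 231 CPM in the tertile richest in mitochondrial UMIs and 175 CPM in the poorest, while in Pcp4-led cells Timp1 had 43.8 CPM in the richest and 66.9 CPM in the poorest; the part of mitochondrial share in the Gfap tertiles was not tested.

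Fibroblast-like cells had a different set of the genes: Timp1, Cp and Osmr were higher there than in all other kept cells, and Serpina3n, Cd44 and S1pr3 were lower. Over all measured genes 11.7% were called higher and 18.6% lower; with median-of-ratios scaling, which shifted these ratios by -0.24 on the log2 scale, the figures were 16.1% and 12.7%, and the 6 calls kept their direction. Timp1 had 268 CPM (236 to 302) in fibroblast-like cells and 43.5 CPM in other cells, a ratio of 6.16 (5.38 to 7.02), and was detected in 33.3% of thinned fibroblast-like cells. Its level was 261 CPM in set 1 and 295 CPM in set 2 of these cells. Cp had 69.8 CPM (54.2 to 88.5) in fibroblast-like cells and 8.94 CPM in other cells, a ratio of 7.81 (5.92 to 10.2). Its levels in the sets, 55.3 CPM in set 1 and 127 CPM in set 2, did not overlap, and 8 of its 68 UMIs were in 1 cell of set 2. Osmr had 34.9 CPM (24.2 to 48.8) in fibroblast-like cells and 9.26 CPM in other cells, a ratio of 3.77 (2.57 to 5.37). For all 3 genes the fibroblast-like interval overlapped that of ependymal-like cells, the next in order, at 117 to 237 CPM for Timp1, 8.09 to 58.2 CPM for Cp and 5.43 to 51.1 CPM for Osmr. For Timp1 the overlap was narrow and rested on 1 ependymal-like cell with 16 UMIs. Without that cell ependymal-like cells had 91.0 CPM of Timp1 (53.9 to 144), below the fibroblast-like interval.

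On the lower side, Serpina3n had 12.3 CPM in fibroblast-like and 52.0 CPM in other cells, and Cd44 had 29.8 CPM in fibroblast-like and 121 CPM in other cells. S1pr3 had 17.4 CPM in fibroblast-like and 38.8 CPM in other cells, a ratio of 0.450 (0.262 to 0.723). The comparison cells are mostly astrocyte-like. Against other cells that are not astrocyte-like, Cd44 kept its lower call, Serpina3n lost it (log2 ratio -0.13) and S1pr3 was higher in fibroblast-like cells (log2 ratio 0.59). Lcn2 and C3 were at 0 UMIs in the 221 fibroblast-like cells, where 3 UMIs would be 3.08 CPM and the upper bound of the interval is 3.79 CPM. The median log2 ratio of the 8 genes was -0.34, or 0.35 with the 2 genes at 0 set to 3.08 CPM, against -0.18 over all genes.

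Ependymal-like cells, the ciliated cells of the ventricle wall, had 4 of the 8 genes called higher and none called lower, where 11.5% of all measured genes were called higher and 5.48% lower. Only 71 cells and 200577 UMIs stand behind these values. The size of the class moved with the clustering, to 126 cells with 15 components and 591 at resolution 1.0, and was 48 to 74 in the other settings. The ependymal-like calls were not repeated in those settings. Serpina3n had 145 CPM in ependymal-like and 50.5 CPM in other cells, a ratio of 2.86 (1.91 to 4.13). Cd44 had a ratio of 1.93 (1.41 to 2.59) and S1pr3 a ratio of 1.97 (1.10 to 3.26). Timp1 had 169.5 CPM in ependymal-like cells and 48.6 CPM in other cells, but 16 of its 34 UMIs were in 1 cell of set 2, and without that cell its level was 91.0 CPM (53.9 to 144). All 13 astrocyte markers were detected in the ependymal-like cells, at a summed 3081 CPM, against 4112 CPM in Pcp4-led and 5189 CPM in Gfap-led cells; their part in these ratios was not tested.

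Most of the 8 genes were called lower in cycling-like, neuroblast-like and OPC-like cells. Cycling-like cells had all 8 genes called lower, where 43.2% of all measured genes were lower and 14.4% higher, and neuroblast-like cells had 7 of 8, where 33.1% were. S1pr3, for example, had 3.91 CPM in cycling-like cells and 45.4 CPM in other cells, and 3.73 CPM in neuroblast-like cells and 42.0 CPM in other cells. For each class of this paragraph the comparison cells are mostly astrocyte-like. How far the lower calls repeat the astrocyte-like result was not tested. The Lcn2 calls are weak, with 1 UMI in cycling-like and 46 UMIs in other cells. For both classes the Lcn2 sign in set 2 rests on 1 UMI, found in the Lgals1-led cluster. That same UMI kept Lcn2 from a higher call in astrocyte-like cells. With 3 UMIs as the limit for a class at 0, Lcn2 was at least 1.70-fold lower in neuroblast-like than in other cells, but the exact interval of that ratio reached 0.753. By the same limit C3 was at least 3.64-fold lower in cycling-like than in other cells, and the exact interval of that ratio reached 0.350. OPC-like cells had 6 of 8 called lower and none higher (18.3% and 8.47% of all genes), with Cd44 at 32.8 CPM in OPC-like and 124 CPM in other cells. Progenitor-like cells had 4 of 8 called lower and none higher (15% and 3.56% of all genes), but Cd44 stood at 103 CPM in progenitor-like and 120 CPM in other cells and was not called. Microglia-like cells had 2 of 8 called lower and none higher (14.7% and 5.27% of all genes), Timp1 on 2 UMIs and S1pr3 on 0 UMIs in that class. The Lgals1-led cluster had Timp1 at 141 CPM (113 to 173) and 47.7 CPM in other cells. This was a higher call in a cluster where 2.53% of all genes were called higher. Osmr and S1pr3 were called lower there, as were 29.3% of all genes, on 0 and 3 UMIs in the cluster. Set 2 held only 53489 UMIs of the cluster, so the set 2 sign of these 2 calls is weak. The Car9-led cluster had Cd44 at 183 CPM and 118 CPM in other cells as its only call among the 8, and a median log2 ratio of 0.23 against -0.04 over all genes, where 5.85% of all genes were called higher and 7.44% lower.

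Genes of the same pathways were counted with the same rule in astrocyte-like against other cells. Over all measured genes 35.7% were higher and 19.1% lower, or 26.6% and 25.7% with median-of-ratios scaling. Of 16 measured genes of oncostatin M receptor and JAK-STAT3 signalling, 12 were higher and none lower (10 and none with median-of-ratios scaling, where Jak1 and Ptpn11 lost their calls), and the list's median log2 ratio was 0.68. Il6st, the gp130 subunit that pairs with Osmr, had 149.8 CPM in astrocyte-like and 32.0 CPM in other cells, and Stat3, the transcription factor downstream of it, had 132 CPM in astrocyte-like and 58.2 CPM in other cells. Jak2 had 17.0 CPM in astrocyte-like and 11.98 CPM in other cells and was not called. Of 9 measured sphingosine 1-phosphate genes, 5 were higher and none lower, with a median of 1.13. Plpp3, a phosphatase that dephosphorylates sphingosine 1-phosphate outside the cell, had 704 CPM in astrocyte-like and 169 CPM in other cells, and the lyase gene Sgpl1 had 89.9 CPM in astrocyte-like and 35.3 CPM in other cells. Sphk2, a kinase that makes the lipid, had 14.9 CPM in both groups.

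Of 9 measured pan-reactive astrocyte genes, 6 were higher and 1 lower, with a median of 0.81. Over all measured genes 35.7% were higher and 19.1% lower. Gfap had 5236 CPM in astrocyte-like and 945 CPM in other cells, Vim, the other filament gene, had 4202 CPM in astrocyte-like and 1838 CPM in other cells, and Nes was not called at 50.3 CPM in astrocyte-like and 52.5 CPM in other cells. The neurotoxic (A1) list had 2 of 9 higher and 1 lower (2 and 2 with median-of-ratios scaling), with a median of -0.02. Its antigen-presentation gene H2-D1 had 63.6 CPM in astrocyte-like and 66.8 CPM in other cells, and the immunoproteasome gene Psmb8 had 12.5 CPM in astrocyte-like and 12.3 CPM in other cells, neither called, while Ggta1 had 50.9 CPM in astrocyte-like and 6.55 CPM in other cells. The A2 list had 5 of 10 higher and 1 lower, with Cd109 at 91.8 CPM in astrocyte-like and 21.0 CPM in other cells.

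Complement genes other than C3 were lower more often than higher, against 35.7% higher and 19.1% lower over all measured genes. Of 13 measured, 3 were higher and 7 lower, with a median of -0.48. The lower ones included C1qa and C1qc, made by microglia, at 1.74 and 1.21 CPM in astrocyte-like and 50.7 and 53.9 CPM in other cells; the higher ones included C4b, a paralogue of C3, at 37.3 CPM in astrocyte-like and 10.8 CPM in other cells, and the complement inhibitor Cd59a at 58.3 CPM in astrocyte-like and 20.2 CPM in other cells. Of 17 metalloproteases and their inhibitors 8 were higher and 5 lower (7 and 5 with median-of-ratios scaling), and the relatives of Timp1 were split: Timp2 had 145 CPM in astrocyte-like and 29.1 CPM in other cells and Timp3 had 113 CPM in astrocyte-like and 55.2 CPM in other cells, both called higher. Timp4, named after its values were seen, was called lower, at 6.69 CPM in astrocyte-like and 12.4 CPM in other cells. Iron and copper genes had 6 of 13 higher and 2 lower (5 and 3 with median-of-ratios scaling), with Slc22a17, a receptor of lipocalin 2, at 137 CPM in astrocyte-like and 44.8 CPM in other cells. Genes of NF-kB and cytokine signalling had 5 of 11 higher and 2 lower, among them Relb at 15.5 CPM in astrocyte-like and 3.50 CPM in other cells. Interferon response genes had 8 of 15 higher and none lower (6 and none with median-of-ratios scaling), and hyaluronan and Cd44 partner genes had 4 of 12 higher and 3 lower (2 and 3 with that scaling). Serpins had 2 of 7 higher and 2 lower. With so few genes per list, the iron and copper, NF-kB, hyaluronan and serpin counts lie near the shares over all genes and are not a finding. The medians of the last 5 lists ran from 0.02 to 0.50, and that of the metalloprotease list was 0.41.

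**Figure D5:**
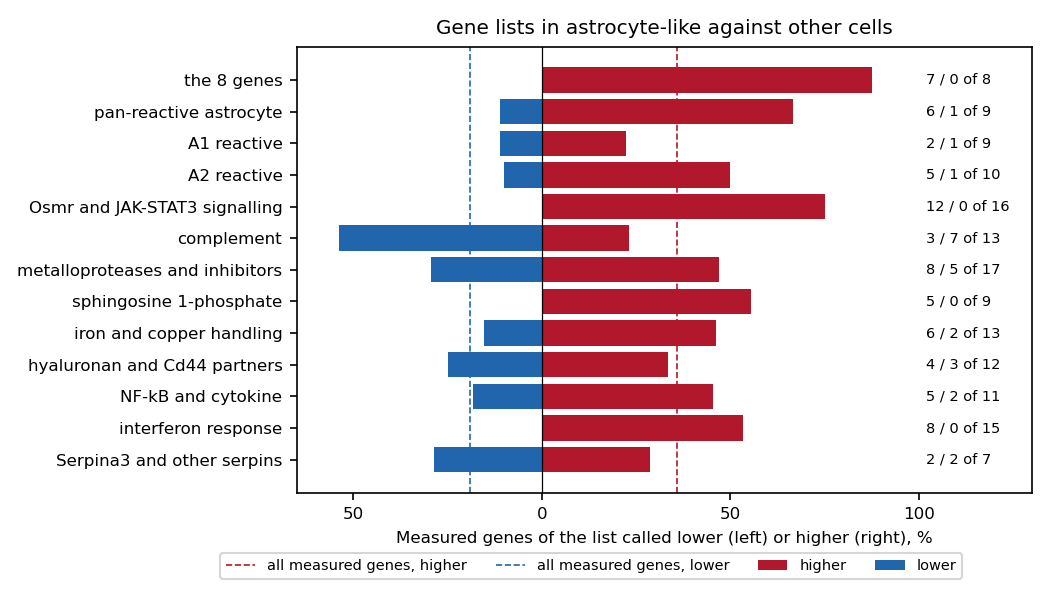
Share of measured genes of each list called higher (red, right) or lower (blue, left) in astrocyte-like than in other cells (horizontal axis, %), with the shares over all measured genes as dashed lines at 35.7% and 19.1% and the counts higher / lower of measured at the right. The 8 genes (7 higher, none lower) and the JAK-STAT3 list (12 of 16 higher) reach furthest to the right, and complement genes reach furthest to the left (7 of 13 lower).

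Between the astrocyte-like clusters most companion genes were not called. Against the 7.96% higher and 5.62% lower of all measured genes, the A1 list had 4 of 9 lower and none higher in the Pcp4-led cluster, including Gbp2 at 18.2 CPM in Pcp4-led and 32.2 CPM in Gfap-led cells. Of the JAK-STAT3 list, 2 of 16 were lower, the cytokine gene Clcf1 at 3.85 CPM in Pcp4-led and 11.1 CPM in Gfap-led cells and Lif at 0.882 CPM in Pcp4-led and 2.45 CPM in Gfap-led cells, while Stat3 (127 CPM in Pcp4-led and 140 CPM in Gfap-led cells) and Il6st (147 and 155 CPM) were not called. Of the sphingosine 1-phosphate list 1 of 9 was lower: S1pr1, the receptor related to S1pr3, had 39.3 CPM in Pcp4-led and 83.8 CPM in Gfap-led cells. Gfap had 3333 CPM in Pcp4-led and 8143 CPM in Gfap-led cells. Serpine2, another serpin, had 774 CPM in Pcp4-led and 524 CPM in Gfap-led cells and was not called, unlike Serpina3n. In fibroblast-like against other cells, where 11.7% of all measured genes were higher and 18.6% lower, 11 of 17 metalloprotease genes were higher and 1 lower, among them Timp3 at 479 CPM in fibroblast-like and 76.3 CPM in other cells, and 11 of 15 interferon response genes were higher and none lower, among them B2m at 598 CPM in fibroblast-like and 145 CPM in other cells.

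Across the 12 clusters, which share libraries and differ in depth, the levels of the genes with at least 300 UMIs (log2 of CPM + 5) fell into loose groups. Osmr and Cp had a Pearson correlation of 0.90, Serpina3n and Cd44 of 0.86, Timp1 and Cp of 0.85 and Cd44 and S1pr3 of 0.82, and Cd44 and Cp had the lowest, 0.34. Among the 7230 other genes with at least 500 UMIs, the closest to Serpina3n was Kcnj16, an inwardly rectifying potassium channel (0.98), followed by Nacc2 and Cml1 (both 0.96). Closest to Cd44 was Ppp1r3c, a glycogen-targeting phosphatase subunit (0.98), then Pdlim4 and Elmod3. Closest to S1pr3 were Kif1c (0.98) and Tom1l2. Closest to Timp1 was S100a11 (0.98), then Laptm4a and Gbp2. Closest to Osmr were Nxn (0.98), Rab22a and Ext2, and closest to Cp were Pofut2 (0.95), Sdc2 and Efemp2. These are correlations over 12 points, given as a description of this matrix.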

How the data were processed

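Single-cell RNA was measured in 1 library of 20HC-treated and 1 of vehicle-treated neural stem cells. The deposited values are whole-number UMI counts per gene and barcode in 1 matrix, made with Cell Ranger 2.1.1 on build mm10, per the submitters' processing notes. The treatment text of the control library also mentions 20HC, so the groups follow the titles. No column of per-sample values was left unused (0).

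Barcodes with at least 500 detected genes and at most 10% mitochondrial UMIs were kept (635 and 912 barcodes fell outside each limit), and doublets called by Scrublet within each barcode set were removed: 239 of 9869 cells (2.42%, where 7.90% would follow from 0.8% per 1000 cells) in set 1 and 11 of 3409 (0.323%, where 2.73% would follow) in set 2, so some doublets are likely to remain. In all, 1657 barcodes were left out. Counts were scaled to 10000 per cell, logged and clustered (scanpy 1.11.5, 2000 variable genes, 30 components, 15 neighbours, Leiden resolution 0.5, leidenalg 0.10.2) without the 8 genes and the genes of 12 companion lists. Clusters were named from 13 marker lists, needing at least 3 markers with 10 UMIs and a 2-fold higher level, and no more markers of another class among the 10 leading genes. UMIs were summed per class and given as CPM with exact Poisson intervals (scipy 1.17.1), shares with Clopper-Pearson intervals, and log2 ratios of CPM + 5. A class at 0 UMIs was called lower only where 3 UMIs would still be 1.5-fold lower, a condition added after the values were seen. Genes with at least 30 UMIs were called. The rule was tested on simulated data for astrocyte-like over other cells: of 200 changed among 13037 genes, 96% of doublings and 91% of halvings were called, and 1.42% of unchanged genes. The simulated counts were Poisson draws from a shared profile, without variation between cells or sets beyond counting. These rates therefore do not carry over to the data or to smaller classes.

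The 8 genes and the lists were chosen with earlier results of these data known. Named beside the 8 genes were, from each list, at most the 4 called and 2 uncalled genes with most UMIs, and for each of the 8 with at least 300 UMIs the 3 genes most correlated over clusters; some items are not reported here. Gene positions came from GENCODE M21 (28339 of 28692 IDs found) and promoters from RefSeq. Alternatives covered clustering, cell filters, depth, barcode set, scaling, the added CPM and the comparison cells.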

Additional observations from a re-analysis of the deposited data

Results flagged for a closer look

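The barcodes left out by the filters also held UMIs of 7 of the 8 genes above the limit that a count of 0 allows, and entered only the alternative settings that kept them. C3 stood at 2.24 CPM in the left-out barcodes and 1.36 CPM in kept cells. Serpina3n stood at 52.5 CPM in the left-out barcodes and 51.0 CPM in kept cells. Cd44 stood at 139 CPM in the left-out barcodes and 119 CPM in kept cells. Osmr stood at 14.4 CPM in the left-out barcodes and 9.91 CPM in kept cells. Timp1 stood at 58.9 CPM in the left-out barcodes and 49.2 CPM in kept cells. S1pr3 stood at 43.2 CPM in the left-out barcodes and 38.2 CPM in kept cells. Cp stood at 15.4 CPM in the left-out barcodes and 10.5 CPM in kept cells. Among the barcodes with over 10% mitochondrial UMIs, Cd44 reached 194 CPM (173 to 218) and Osmr 21.0 CPM (14.5 to 29.6). Among those with under 500 genes, Timp1 reached 112 CPM (86.9 to 142).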

How the results depend on the processing

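Over the settings tried, 6 to 8 of the genes were higher in astrocyte-like cells and 3 to 4 in fibroblast-like cells, and 2 were higher in Pcp4-led than in Gfap-led cells in all 15. Of 250 values of called genes, 244 kept their call, 5 lost it and 1 turned. This tally includes the settings with CPM + 1 and with no minimum of UMIs, which could not change a call. It did not apply the minimum of 30 UMIs, so C3 in thinned Pcp4-led over Gfap-led cells counted as kept. S1pr3 in fibroblast-like over other cells turned to a log2 ratio of 0.59 against cells that are not astrocyte-like, and lost its call when thinned (-0.87) and in barcode set 2 alone (-0.85). Lcn2 gained calls in set 1 alone, at 0.65 in astrocyte-like over other cells and -0.50 in Pcp4-led over Gfap-led cells, which made 2 genes lower in Pcp4-led cells. That count was 0 with at most 5% mitochondrial UMIs and 0 with thinned cells. The median log2 ratio in astrocyte-like over other cells was 1.51 with thinned cells, 1.56 with CPM + 1, 0.78 with median-of-ratios scaling, 1.14 as a mean over cells and 1.41 with narrower comparison cells. In fibroblast-like over other cells it was -0.34 with no cell filter, -0.41 in set 1 alone and -1.14 with CPM + 1, and turned positive with thinned cells (0.14) and narrower comparison cells (0.28). Thinned medians cover fewer genes, since those under 30 UMIs drop out; the cause of the other shifts was not tested. The share of astrocyte-like cells with at least 2 of the genes was 22.96% with no cell filter, 23.3% with at most 5% mitochondrial UMIs and 8.89% when thinned. Resolution 0.3 did not separate the Pcp4-led and Gfap-led clusters. The setting without each gene's richest cell, and all settings for the Pcp4-led over Gfap-led results, were added after the data were seen. No paired analysis was possible because barcodes could not be tied to either library. Lcn2 and C3 are limited by depth, at 47 and 52 UMIs.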
